A study of Mus musculus with 6 samples.

Results

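Microglia sense nucleotides and lysophospholipids through a small set of surface proteins, and 7 of the 31053 genes of the deposited table were followed here: P2ry12, P2ry13 and P2ry6, Gpr34, P2rx4 and P2rx7, and Entpd1. They were taken by symbol, each symbol was found once in the gene list, and none of the 7 was used to sort cells into groups. The cells were CD45+ cells sorted from the tumor-bearing hemisphere of female SCID mice, which lack T and B lymphocytes and keep innate immune cells. The mice had received U87, an established human glioma line, that carried either an empty vector (pcDNA, 3 mice, taken at 6 weeks after implantation) or IL-33 (IL33, 3 mice, taken at 3 weeks). The labels give an age of 6 to 8 weeks, and the growth protocol an implantation at 8 weeks of age. The 6 libraries were deposited as 1 table whose barcodes end in a suffix from 1 to 6, and the labels tie no suffix to a mouse. Since groups were taken from the labels alone, IL33 and pcDNA mice were not compared here, and the table was treated as 1 pooled sample with no test.

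ATP and ADP leak from damaged cells and act on channels and on G protein-coupled receptors. P2rx4 and P2rx7 encode ATP-gated ion channels, P2rx7 being the one that needs high ATP and is tied to inflammasome activation. P2ry12 and P2ry13 encode receptors for ADP that couple to inhibitory G proteins, and P2ry12 directs microglial processes towards a site of injury. P2ry6 encodes a receptor for UDP that promotes phagocytosis. Gpr34 encodes a receptor for lysophosphatidylserine, a lipid released by stressed and activated cells, and belongs to the same branch of receptors as P2ry12 and P2ry13. Entpd1 encodes the ectonucleotidase CD39, which breaks extracellular ATP and ADP down to AMP. It so limits the supply of ligand to the receptors for ATP and ADP. P2ry12 and Gpr34 are widely used as markers of resting microglia in mice.

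The genes lie in a few places of the genome (GRCm38). P2ry12 (chr3:59216272-59262871, minus strand) and P2ry13 (chr3:59207892-59210882, minus strand) are neighbors 5389 bases apart, and both lie inside Med12l, a gene on the opposite strand with exons that overlap exons of P2ry12. P2rx7 (chr5:122643911-122691432) and P2rx4 (chr5:122707544-122729738), both on the plus strand, are 16111 bases apart. Gpr34 (chrX:13632089-13640858, plus strand) lies inside Cask, which is on the opposite strand, and P2ry6 (chr7:100937630-100974649, minus strand) and Entpd1 (chr19:40612366-40741602, plus strand) overlap no other gene of the deposited gene list. The library metrics of the study list reads antisense to a gene apart from reads on the transcriptome. In microglia summed by suffix and Apoe bin, P2ry12 and P2ry13 went together, while P2rx7 and P2rx4 did not. Gpr34, on another chromosome, went with P2ry12 at least as closely. These sums are built on the Apoe bins. Genes that differ with Apoe, as given below, are therefore bound to go together or opposite, and genes level across the bins are not. Whether nearness in the genome has a part in these patterns was not tested. The promoters of both pairs of neighbors are shown, from 250 bases before to 50 bases after the start site (RefSeq, GRCm38.p6). They are in lower case, with capitals for 3 short motifs on either strand. GAGGAA is a core of sites for PU.1, the factor of myeloid cells. GGAAGT is a core of ETS sites, and CACGTG is the E-box of the MITF and TFE family. The P2ry12 promoter is at chr3:59262936-59263235, that of P2ry13 at chr3:59210833-59211132, both on the minus strand, that of P2rx4 at chr5:122707294-122707593 and the first of P2rx7 at chr5:122643677-122643976.
P2ry12: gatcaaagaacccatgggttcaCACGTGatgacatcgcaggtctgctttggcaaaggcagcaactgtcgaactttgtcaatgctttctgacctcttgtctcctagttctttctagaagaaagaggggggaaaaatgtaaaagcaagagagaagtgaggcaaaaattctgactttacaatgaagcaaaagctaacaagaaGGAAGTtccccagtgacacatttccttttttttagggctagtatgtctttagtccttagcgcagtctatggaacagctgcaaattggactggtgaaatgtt
P2ry13: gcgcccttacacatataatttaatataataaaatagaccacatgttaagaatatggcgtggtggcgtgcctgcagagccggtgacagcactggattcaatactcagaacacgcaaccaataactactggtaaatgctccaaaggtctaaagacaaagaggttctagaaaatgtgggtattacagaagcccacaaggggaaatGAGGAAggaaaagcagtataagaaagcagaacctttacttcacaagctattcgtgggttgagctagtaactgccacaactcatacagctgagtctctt
P2rx4: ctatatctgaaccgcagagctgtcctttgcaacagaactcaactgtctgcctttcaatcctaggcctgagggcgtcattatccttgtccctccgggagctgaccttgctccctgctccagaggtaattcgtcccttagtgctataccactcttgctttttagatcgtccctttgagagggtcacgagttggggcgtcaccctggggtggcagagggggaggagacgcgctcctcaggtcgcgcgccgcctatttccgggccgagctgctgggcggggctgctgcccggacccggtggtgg
P2rx7: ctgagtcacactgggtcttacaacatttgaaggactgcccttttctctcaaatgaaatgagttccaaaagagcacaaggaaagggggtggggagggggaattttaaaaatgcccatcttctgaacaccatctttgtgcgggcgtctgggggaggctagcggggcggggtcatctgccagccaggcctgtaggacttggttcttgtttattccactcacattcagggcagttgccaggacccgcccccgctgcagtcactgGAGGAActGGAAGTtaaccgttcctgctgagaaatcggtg
In P2ry12 the ETS core starts at base -51 and the E-box at base -228 from the start site, in P2ry13 the PU.1 core starts at base -48, in P2rx7 the PU.1 core and the ETS core start at bases 11 and 19, and P2rx4 held none of the 3. Of all 32851 promoters of this length, 28.3% hold GAGGAA, 23.8% GGAAGT and 7.15% CACGTG, so a match is a description of these letters and no evidence of binding. Of the 7 genes, 5 had a promoter in the table used, and P2ry6 and Gpr34 were not analysed here in this respect.

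The table held 105560763 unique molecular identifiers (UMIs), each 1 captured transcript, over 40411 barcodes, from 9745192 to 24393841 in a suffix, with a median of 1536 to 3503 UMIs per barcode. The limits of the study (over 200 and at most 2500 genes, under 5% mitochondrial UMIs) left 38751 barcodes. Microglia were taken as cells with at least 2 genes and 0.5% of UMIs on a list of 8 microglial genes that holds none of the 7 genes (among them Tmem119, Selplg and Cx3cr1) and in no other gate, which gave 37620 cells, 97.1% of those kept. The gate is wide, and macrophages from the blood that took on these genes would be inside it. The paper names several clusters of bone-marrow-derived macrophages. Among them are a cluster with microglial genes at low levels and a cluster high in Apoe and Spp1. Such cells were not set apart here, so the cells called microglia may include them. In these cells the 8 genes summed to 25964 UMIs per 1000000 UMIs (CPM), against 5.03 CPM for 7 border macrophage genes, 12.9 CPM for 5 monocyte genes and 8.73 CPM for 5 dendritic cell genes. The other gates, for cells with little microglial RNA, held 122 Ly6c2-positive monocytes, 54 Cd209a-positive dendritic cells, 120 NK cells, 44 granulocytes and 190 choroid plexus epithelial cells. The gate for border macrophages held 2 cells and gives no level. A further 136 cells had at least 2 C1q genes but too little of the microglial list, and are called the C1q group.

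Before any result, 1 property of the barcodes has to be stated. The first 16 bases of a barcode name a droplet, and sequences in different suffixes would come from different libraries. Of the 40411 barcodes, 14722 (36.4%) carried a sequence that was also present under another suffix, and 490 sequences were present under all 6. Between 509 and 3428 sequences were common to any pair of suffixes. In 3733 pairs of gated microglia with the same sequence, the UMIs of a cell (Spearman's rho 0.933) and its Apoe share (rho 0.924) went together. The shared barcodes were shallow, with a median of 927 UMIs against 3112 in the other gated microglia, and made up 91.5% of microglia with under 1000 UMIs and 79.2% of those with the highest Apoe share. They held 4.92% of the monocytes and 4.17% of the NK cells. Why barcodes are shared was not tested. Copies of under 500 UMIs, the lowest total in the table, would not be seen. Values are therefore given over all barcodes and over the 23308 gated microglia whose sequence had 1 suffix, called unshared, and ranges over suffixes are over unshared barcodes only.

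P2ry12 was the most abundant of the 7 transcripts in gated microglia, followed by Gpr34, P2ry13, P2ry6, P2rx4, Entpd1 and P2rx7. These 3' counts score a molecule once whatever its length, but how well each 3' end is captured differs between genes. Over all barcodes P2ry12, the ADP receptor of process movement, was at 3703 CPM (interval 3690.1 to 3715), and over unshared barcodes it lay between 3030.1 and 4568 CPM in the 6 suffixes (median 4152). Gpr34, the lysophosphatidylserine receptor, was at 1511 CPM (interval 1503 to 1519), from 1217 to 1959 CPM by suffix (median 1658). P2ry13, the second ADP receptor, was at 569.9 CPM (interval 565 to 575) and by suffix from 477 to 760.1 CPM. These 3 ranges do not overlap, so the genes kept this order in every suffix. P2ry6, the UDP receptor, came next at 277 CPM (interval 274 to 281), from 245 to 321 CPM by suffix. The channel P2rx4 at 144 CPM (interval 142 to 147) and the enzyme Entpd1 at 123 CPM (interval 121 to 125) had suffix ranges that overlap (126 to 145 and 105 to 152 CPM), so their order is not settled. P2rx7 was lowest at 40.9 CPM (interval 39.6 to 42.3), from 37.6 to 44.8 CPM by suffix. Intervals are exact Poisson 95% intervals and cover counting error only. At least 1 UMI of P2ry12 was found in 91.5% of these cells, of Gpr34 in 77.2% and of P2rx7 in 9.31%, at a median of 2412 UMIs per cell.

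Set against Ly6c2-positive monocytes, the cells that enter the brain from the blood, 5 of the 7 genes were far higher in microglia, and P2ry6 and P2rx4 were less than 2 times higher. The count of 5 of 7 genes higher by at least 2 times stands against 20.4% of the 6262 genes of at least 20 CPM in either group. P2ry12 was at 45.6 CPM (interval 29.2 to 67.8) in monocytes, Gpr34 at 28.5 CPM (interval 15.9 to 47.0), P2ry13 at 17.1 CPM (interval 7.81 to 32.4) and Entpd1 at 15.2 CPM (interval 6.56 to 29.9). Microglia were higher by 81.2 times (interval 54.6 to 127), 53.0 times (interval 32.2 to 94.8), 33.3 times (interval 17.6 to 72.9) and 8.10 times (interval 4.11 to 18.8). These monocytes leave out 16 barcodes with more microglial RNA, so the gate takes part in the size of the ratios. With the 16 included, microglia were higher by 21.1 times for P2ry12, 24.3 times for Gpr34 and 21.7 times for P2ry13. P2rx7 rested on 3 UMIs in monocytes, and its ratio of 7.19 times (interval 2.46 to 34.9) is accordingly loose. The UDP receptor P2ry6 and the channel P2rx4 stood apart. P2ry6 was at 197 CPM (interval 161 to 239) in monocytes, with a ratio of 1.40 times (interval 1.16 to 1.72), and P2rx4 at 77.9 CPM (interval 55.9 to 106), with a ratio of 1.85 times (interval 1.37 to 2.58). Without shared barcodes these ratios were 1.42 and 1.68, and the count stayed at 5 of 7. Only suffixes 4 and 6 held 20 or more unshared monocytes. In both all 7 genes were higher in microglia, and the other 4 suffixes give no such check.

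NK cells and choroid plexus cells are not myeloid and should lack P2ry12. Only those with little microglial RNA are used here, so the gate itself keeps their microglial UMIs low. A further 96 NK, 67 choroid plexus and 16 monocyte barcodes with more microglial RNA were set apart. Those NK barcodes held P2ry12 at 2143, P2ry6 at 253 and P2rx4 at 114 CPM. NK cells with little microglial RNA held 46.7 CPM of P2ry12 (interval 23.3 to 83.5) and such choroid plexus cells 49.0 CPM (interval 29.9 to 75.7). The level of monocytes was not above these values. Gpr34, at 28.5 CPM in monocytes, was at 67.9 CPM in NK cells and 9.80 CPM in choroid plexus cells, and so lay between them. Entpd1 lay between them too, at 15.2, 29.7 and 0 CPM in the same order, where the 0 allows up to 7.35 CPM. P2ry13, with 9, 3 and 2 UMIs in the same order, had intervals that overlap. For each P2ry12 UMI monocytes held 0.625 Gpr34, 0.375 P2ry13 and 0.333 Entpd1 UMIs, against 0.408, 0.154 and 0.0332 in microglia. Whether the UMIs of these 4 genes in monocytes come from free RNA or from the cells was not tested. The UMIs of P2ry6 and P2rx4 were distributed differently. Neither had a UMI in the 120 NK cells with little microglial RNA, where a count of 0 was bounded by 3 counts, or 12.7 CPM. The monocyte levels were 15.5 times (P2ry6) and 6.11 times (P2rx4) this bound, without the counting error of the monocytes. With that error, the monocyte intervals began at 161 and 55.9 CPM, against an exact upper limit of 15.7 CPM in NK cells. Microglia held 0.0749 P2ry6 UMIs for each P2ry12 UMI, monocytes 4.33 and dendritic cells 7.20. At least 1 P2ry6 UMI was found in 45.1% of monocytes (interval 36.1 to 54.3%) and in 0 of 120 NK cells, with an exact binomial upper bound of 3.03%, at median depths of 4310 and 1782 UMIs. With each cell thinned to 500 UMIs the shares were 12.3% in monocytes, 0% in NK cells and 12.9% in microglia.

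Dendritic cells held the same pair of genes. P2ry6 was at 126 CPM (interval 88.5 to 175) and P2rx4 at 70.2 CPM (interval 42.9 to 108), while P2ry12 had 5 UMIs and P2ry13 none (up to 10.5 CPM). Granulocytes were the only one of these gates in which P2ry13, at 155 CPM (interval 67.1 to 306) from 8 UMIs, was not below P2ry12, at 97.2 CPM (interval 31.6 to 227) from 5 UMIs, and the intervals of the pair overlap. The C1q group held P2ry6 at 201 CPM (interval 149 to 265) and P2rx4 at 161 CPM (interval 115 to 219), against 277 and 144 CPM in microglia, and P2ry12 at 149 CPM (interval 105 to 205) and Gpr34 at 197 CPM (interval 146 to 260.3). Ccr2, a receptor of recruited monocytes, was at 864 CPM there but was found in only 29.4% of the cells. Ly6c2 and Cd209a had no UMI in the group. The monocyte and dendritic gates use these genes, so part of this follows from the gating. Of the barcodes of the group, 46.3% were shared.

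**Figure D1:**
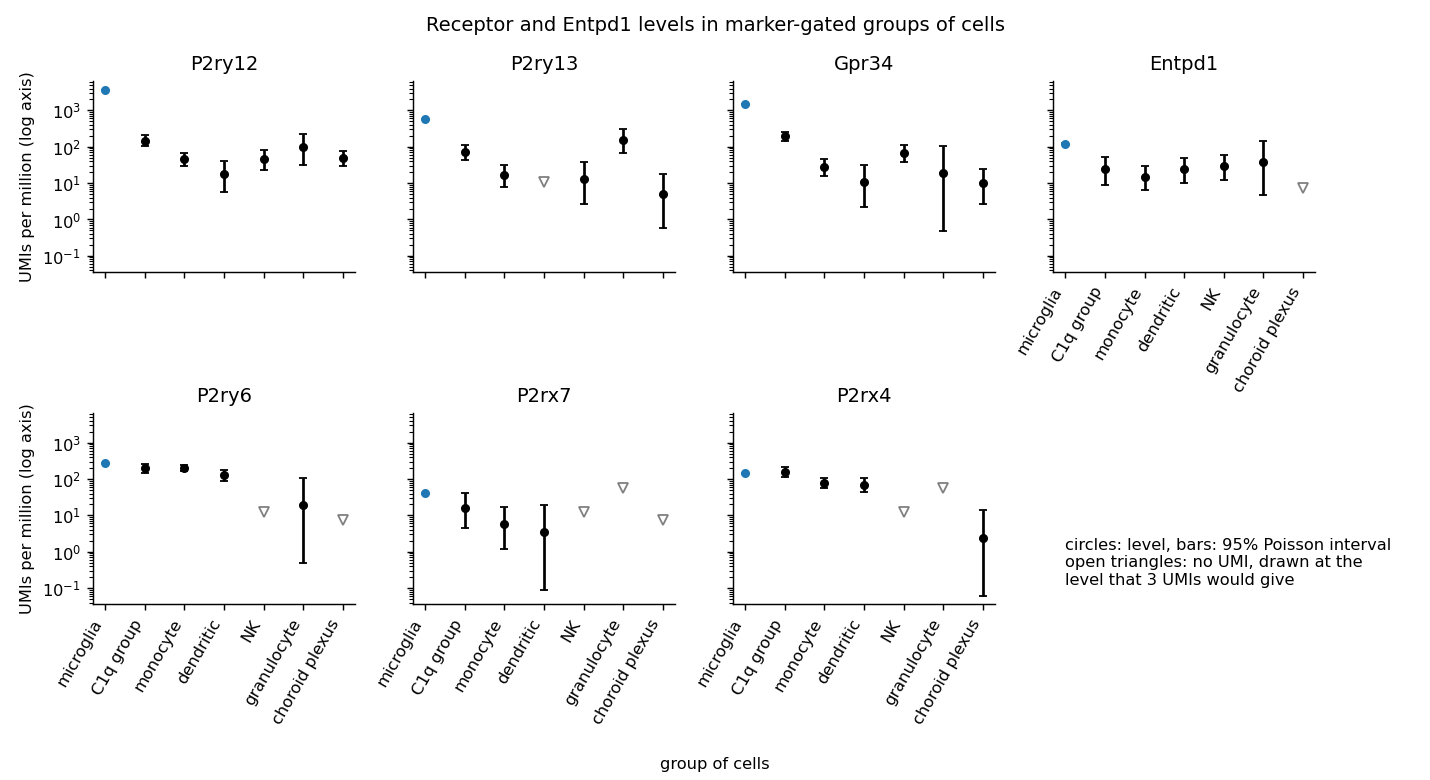
Level of each gene (CPM, log axis) in 7 marker-gated groups of cells, each point a sum over the cells of the group with its 95% Poisson interval and each open triangle a group without a UMI, drawn at the level 3 UMIs would give. P2ry12, P2ry13, Gpr34 and Entpd1 were 8.10 to 81.2 times higher in microglia than in monocytes with little microglial RNA. P2ry6 and P2rx4 stayed within a factor of 2 in these monocytes and had no UMI in NK cells with little microglial RNA.

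Apoe, an apolipoprotein that microglia make in large amounts when they respond to injury or tumor, was then used to order the microglia. Cells were binned by the share of their UMIs on Apoe, a measure that uses none of the 7 genes. From the lowest bin (below 0.1%, 6911 cells) to the highest (at least 3%, 8065 cells), the 2 ADP receptors, Gpr34 and Entpd1 were lower, P2rx4 was higher, and P2ry6 and P2rx7 moved little. By the limit of 1.5 times, 4 of 7 genes were lower, against 8.64% of 5396 genes of at least 20 CPM in microglia, and 1 of 7 was higher, against 6.49%. Over unshared barcodes the same counts held, against 9.28% and 6.02%.

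P2ry12 stood at 4579 CPM (interval 4548 to 4609.6) in the lowest bin, 4551, 4240.1 and 2982 CPM in the next 3, and 1575 CPM (interval 1554 to 1596) in the highest. By suffix it lay from 3965 to 4937 CPM (median 4532) in the lowest bin and from 1148 to 1908 CPM (median 1537) in the highest. The ranges do not overlap, and most of the difference lay above an Apoe share of 1%. P2ry12 was lower by 2.91 times (interval 2.86 to 2.95) over all barcodes and by 3.03 times (interval 2.97 to 3.10) over unshared ones. Gpr34 followed closely, at 1950.2 CPM (interval 1930.2 to 1970.3) and 659 CPM (interval 646 to 673) in the extreme bins, and by suffix from 1569.5 to 2158 CPM (median 1902) and from 556 to 975 CPM (median 758). The suffixes of the extreme bins were again apart. It was lower by 2.96 times (interval 2.89 to 3.03), or 2.76 times (interval 2.67 to 2.85) unshared. P2ry13, the neighbor of P2ry12 in the genome, stood at 773 CPM (interval 760.5 to 786) in the lowest bin and at 266 CPM (interval 257 to 274) in the highest, and by suffix from 706 to 838 CPM (median 784) and from 253 to 383 CPM (median 316). It was lower by 2.91 times (interval 2.81 to 3.02), or 2.58 times (interval 2.46 to 2.71) unshared. In P2ry13 the decline began at the lowest shares, with 697 and 611 CPM in the next 2 bins, where P2ry12 was still above 4000 CPM.

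Entpd1, the enzyme that degrades ATP and ADP, was at 143 CPM (interval 138 to 149) in the lowest Apoe bin. In the highest it was at 78.8 CPM (interval 74.2 to 83.6), lower by 1.81 times (interval 1.69 to 1.95). Over unshared barcodes the highest bin was at 58.8 CPM (interval 52.9 to 65.1), and the ratio was 2.44 times (interval 2.18 to 2.73). In all of P2ry12, Gpr34, P2ry13 and Entpd1, the direction was the same in 6 of 6 suffixes. The channel P2rx4 went the other way, with 123 CPM (interval 118 to 128) in the lowest bin, 117, 123 and 154 CPM in the next 3, and 228 CPM (interval 220.0 to 236) in the highest. By suffix P2rx4 lay from 105 to 137 CPM (median 118) and from 192 to 252 CPM (median 224), without overlap, and was higher by 1.85 times (interval 1.75 to 1.95), or 1.77 times (interval 1.65 to 1.90) unshared. The UDP receptor P2ry6 was at 285 CPM (interval 277 to 293) and 282 CPM (interval 273 to 291), a ratio of 0.988 times (interval 0.948 to 1.03), higher in 3 and lower in 3 of 6 suffixes. P2rx7 was at 42.9 CPM (interval 40.0 to 46.0) and 39.0 CPM (interval 35.8 to 42.4), a ratio of 0.908 times (interval 0.813 to 1.01), lower in 4 of 6 suffixes. The number of UMIs of the ADP receptor for each UMI of the ATP channel went from 37.1 (P2ry12 over P2rx4) in the lowest Apoe bin to 6.91 in the highest.

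**Figure D2:**
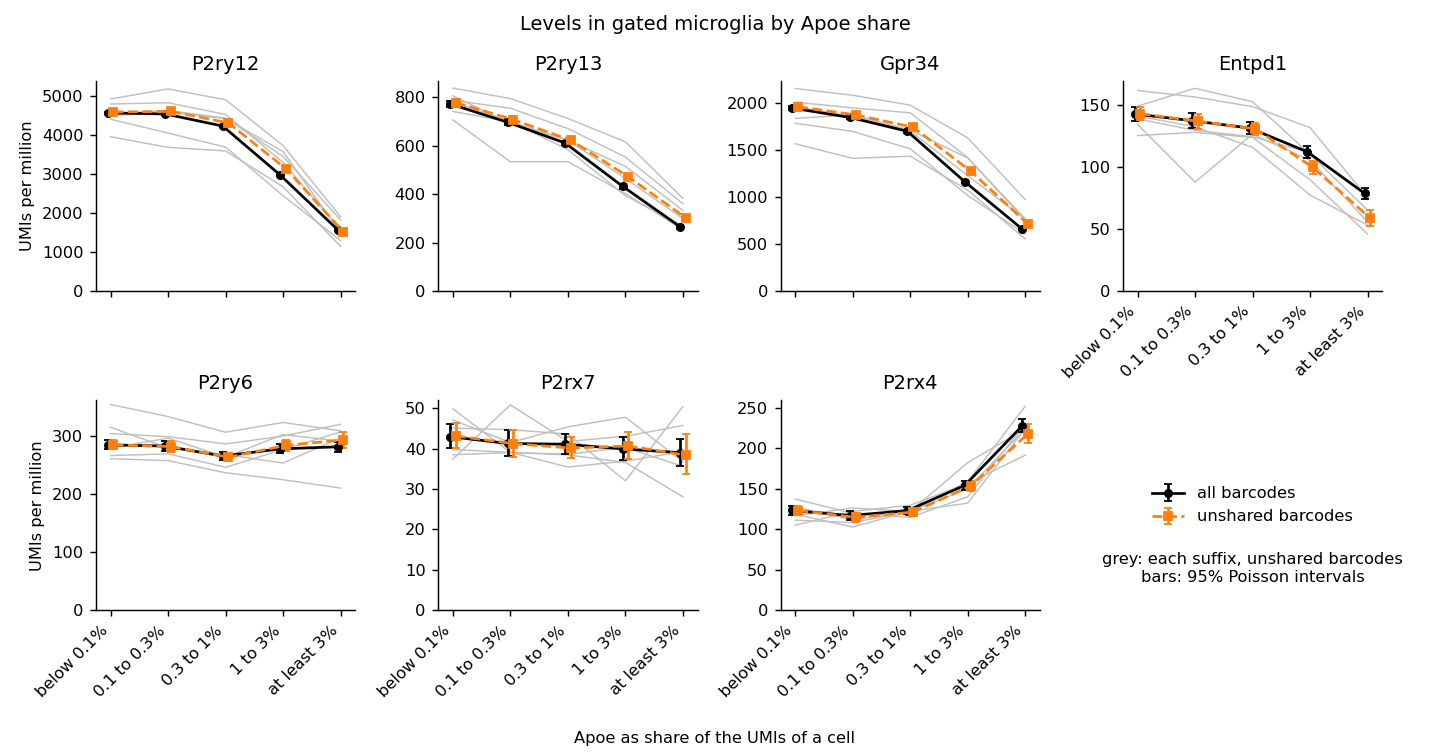
Level of each gene in gated microglia (CPM) in 5 bins of the share of the UMIs of a cell on Apoe, over all barcodes (black), over barcodes of 1 suffix (orange) and in each of 6 suffixes (grey, unshared), with 95% Poisson intervals. P2ry12 went from 4579 to 1575 CPM and P2rx4 from 123 to 228 CPM, while P2ry6 kept 285 and 282 CPM at the ends.

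Several other measures moved with the Apoe bins. The microglial list summed to 27562 CPM in the lowest and 21749 CPM in the highest bin. Of its genes Tmem119 was lower by 1.69 times (2.18 unshared) and Selplg by 1.80 times (3.19 unshared). The 7 border macrophage genes summed to 1.66 CPM in the lowest bin (0.713 to 7.31 by suffix, all barcodes) and 14.7 CPM in the highest (4.37 to 30.9), with overlapping ranges, most of it Mrc1, with Lyve1 and Cd209f at 0 in both. The 5 monocyte genes summed to 12.1 and 9.25 CPM, against 7427 CPM in gated monocytes. Malat1, a nuclear RNA, was at 67614 and 41996 CPM, the mitochondrial share at 1.12% and 1.76%, and 8 immediate early genes, which tissue dissociation also induces, at 52299.8 and 32037 CPM. The part of these measures in the differences of the 7 genes was not tested. Nor was it tested whether bone-marrow-derived macrophages, which the gate does not set apart, made up more of the Apoe-high cells. With microglia limited to cells without a UMI on the border macrophage, monocyte and dendritic lists, 4 of 7 genes were lower as before. Over gated microglia these lists summed to only 5.03, 12.9 and 8.73 CPM, so few cells were left out and the count could hardly change. The lists hold neither Apoe nor Spp1, and so cannot set apart the macrophages high in both that the paper names.

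Depth also differed, with a median of 2703 UMIs in the lowest and 1170 in the highest Apoe bin, so the comparison was made again among microglia of 2000 to under 3000 UMIs. There 2995 cells of the lowest bin and 746 of the highest had medians of 2536 and 2392 UMIs. P2ry12 was lower by 3.32 times (interval 3.19 to 3.46), Gpr34 by 3.06 times (interval 2.89 to 3.25), P2ry13 by 3.00 times (interval 2.73 to 3.30) and Entpd1 by 1.80 times (interval 1.51 to 2.15). P2rx4 was higher by 1.74 times (interval 1.55 to 1.95), and P2ry6 gave 0.992 times (interval 0.898 to 1.09). The 254 unshared cells of the highest bin gave ratios of 3.24 for P2ry12, 2.25 for Gpr34, 2.13 for P2ry13 and 2.15 for Entpd1, and P2rx4 was higher by 1.81 times. The differences in P2ry12, Gpr34, P2ry13, Entpd1 and P2rx4 were present at similar depth, with and without shared barcodes.

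Single cells of this depth show how the levels were spread. A cell with little Apoe held a median of 11 P2ry12 UMIs (10th to 90th percentile 5 to 19), and a cell with much Apoe 3 (percentiles 1 to 7). No P2ry12 UMI was found in 6 of 2995 low-Apoe cells (Clopper-Pearson interval 0.0736 to 0.436%) and in 58 of 746 high-Apoe cells, 7.77% (interval 5.96 to 9.94%). P2ry12 was thus found in most Apoe-high cells, at a lower count per cell. Were all Apoe-high cells at the mean level of their bin, 3.60% would be without a UMI by Poisson counting. For Gpr34 the medians were 5 and 1 UMIs, and 1.97% and 25.5% of cells had none. P2rx4 is close to the limit of detection, with a mean of 0.335 and 0.560 UMIs per cell, and its cells without a UMI were 72.2% (interval 70.5 to 73.8%) and 59.2% (interval 55.6 to 62.8%). P2ry6 had no UMI in 50.7% and 52.5%, with overlapping intervals. With every microglial cell thinned to 500 UMIs, P2ry12 was found in 85.9% of the lowest and 51.3% of the highest Apoe bin (98.4% and 77.8% unthinned), P2rx4 in 6.21% and 10.9% (27.2% and 29.1% unthinned), and no cell was too shallow.

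**Figure D3:**
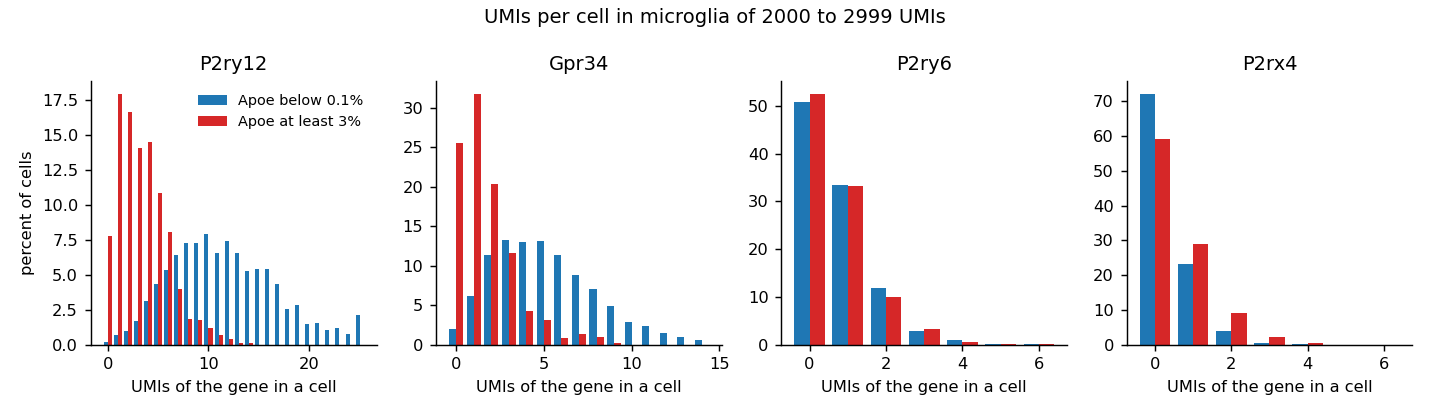
Percent of cells (y axis) with a given number of UMIs of P2ry12, Gpr34, P2ry6 and P2rx4 (x axis) among microglia of 2000 to under 3000 UMIs, for the lowest (blue, 2995 cells) and the highest Apoe bin (red, 746 cells). The last P2ry12 bar holds cells with 25 or more UMIs, and the median P2ry12 count was 11 in blue and 3 in red.

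Differences with depth alone changed with the shared barcodes. Over all barcodes P2ry12, Gpr34 and P2ry13 were lowest in the shallowest cells. P2ry12 went from 2385 CPM (interval 2348 to 2422) at under 1000 UMIs to 4184 CPM (interval 4156 to 4212) at 2000 to under 3000 and 3399.9 CPM (interval 3378 to 3422) at 4000 or more, Gpr34 from 842 to 1841 and 1308 CPM, and P2ry13 from 352 to 681 and 512 CPM. Between the shallowest and the deepest bin 1 of 7 genes, Gpr34, was lower by at least 1.5 times, at 1.55 times (interval 1.51 to 1.60), against 7.99% of genes. Without suffix 3 no gene passed, without suffix 4 P2ry13 passed too, and without suffix 5 both P2ry12 and P2ry13. Over unshared barcodes 0 of 7 was, against 8.01%. Gpr34 was then higher in the shallowest cells, at 1586 CPM (interval 1484 to 1692) against 1308 CPM (interval 1294 to 1322), and so was P2ry13, at 697 CPM (interval 630.1 to 769) against 513 CPM (interval 504 to 522). P2ry12 was at 3299 CPM (interval 3152 to 3451) against 3404 CPM (interval 3382 to 3427). Of the 8896 cells of the shallowest bin 759 were unshared. P2ry6 kept 274 to 281 CPM over all barcodes in the extreme bins, and P2rx4 was higher in the shallowest cells either way (1.38 times over all and 1.40 times over unshared barcodes).

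Within Apoe bins depth still made a difference for some genes. At an Apoe share below 0.1%, unshared P2ry12 was at 3830.3 CPM in the shallowest and 4257 CPM in the deepest cells, and at 3% or more at 1538 and 1593 CPM. Between these depths the high-Apoe cells were not level, with 1080.2 CPM (interval 954 to 1219) at 1000 to under 2000 UMIs. At every depth the P2ry12 level was lower at 3% or more than below 0.1%. Other genes differed more with depth. At an Apoe share of 0.3 to 1%, unshared P2ry13 was at 831 CPM (interval 679.8 to 1006) in the shallowest and 557 CPM (interval 541 to 573) in the deepest cells, and P2rx4 at 229.6 CPM (interval 154 to 329.7) and 121 CPM (interval 113 to 128). At 1 to 3% Gpr34 was at 1518 CPM (interval 1294 to 1768) and 1072 CPM (interval 1048 to 1098). Each shallowest bin held under 200 unshared cells. Over all barcodes the shallowest low-Apoe cells were at 3168 CPM. Shared barcodes of the lowest Apoe bin held P2ry12 at 4039 CPM and those of the highest at 1619.7 CPM, so the direction with Apoe was the same inside the shared set.

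**Figure D4:**
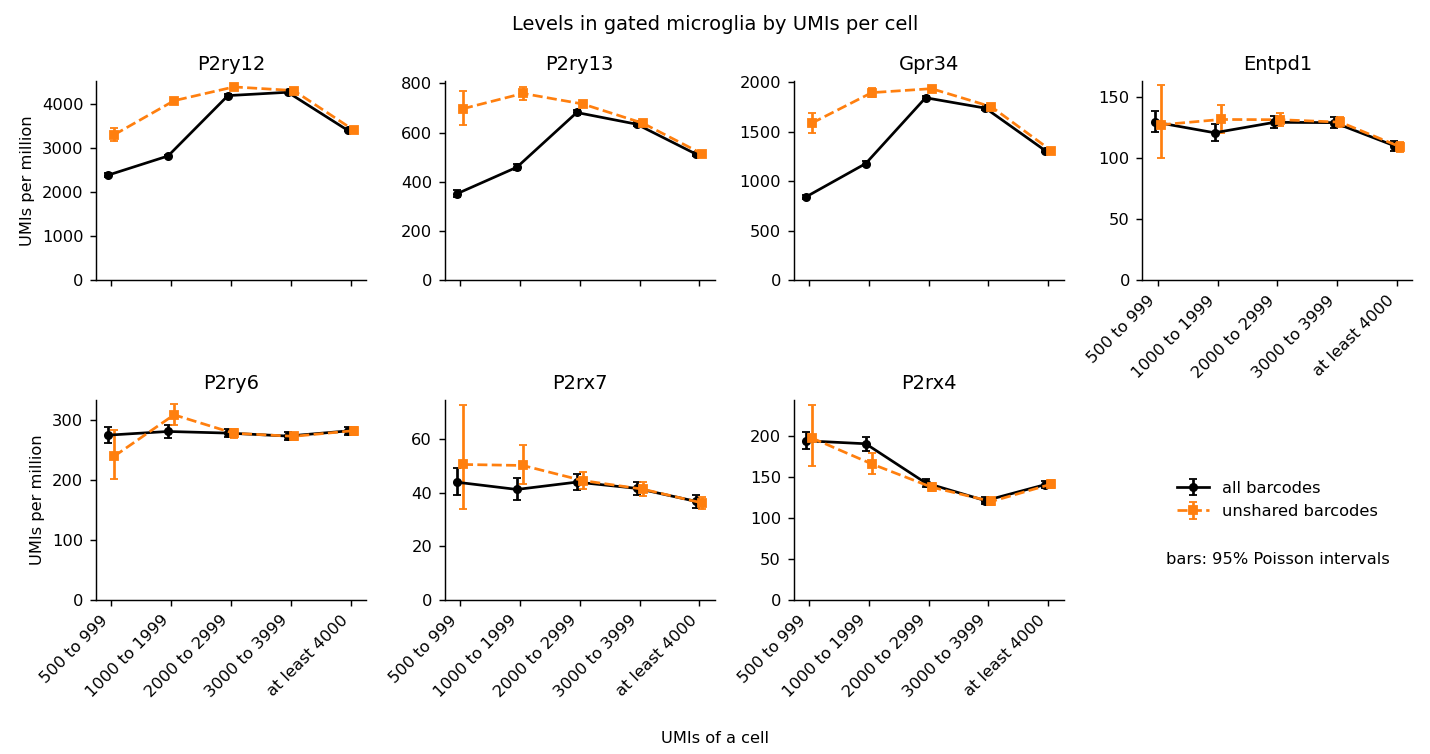
Level of each gene in gated microglia (CPM) in 5 bins of the total UMIs of a cell, over all barcodes (black) and over barcodes of 1 suffix (orange), with 95% Poisson intervals. In the shallowest bin Gpr34 was at 842 CPM over all and 1586 CPM over unshared barcodes, whereas the curves nearly meet from 3000 UMIs.

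Microglia in named states were then compared with the other microglia of at least 2000 UMIs (21448 cells in all, 6.67% shared). A state was set by at least 2 genes and 3 UMIs of its list, or for Ccl2 and Ccl12 by 1% of UMIs, and cells in a state were deeper (medians of 3476 to 4444 UMIs, against 3224 to 3257 in the others). States were not matched to the others in depth, and the part of depth in the ratios below was not tested. The states overlap, with 691 cells in more than 1 of them, and the others of a state include cells of the remaining states. Of the 42 pairs of gene and state, which are thus not separate comparisons, 15 were lower by at least 1.5 times. In 725 cells in S phase it was 0 of 7 genes, against 2.82% of all genes, in 171 cells in mitosis 4 (against 12%), in 524 cells with interferon genes 4 (against 5.32%), in 475 cells with MHC class II genes 1 (against 2.93%), in 286 cells with the Lpl list 4 (against 8.84%), and in 2711 cells high in Ccl2 and Ccl12 2 (against 0.76%). P2ry6 was in none of the counts.

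Microglia with interferon genes, a set that type I interferon induces, held P2ry12 at 1967 CPM against 4000.2 CPM in the others, lower by 2.03 times (interval 1.97 to 2.10), and Gpr34 at 722 against 1643 CPM, lower by 2.27 times (interval 2.17 to 2.39). P2ry13 and Entpd1 were lower by 1.64 and 1.73 times, and P2rx4 was higher by 1.55 times (interval 1.41 to 1.70). In all these genes the direction was the same in the 5 suffixes with 20 or more such cells. Apoe was 2.19 times higher in these cells. Against other microglia with the same mix of Apoe bins, P2ry12 was still 1.66 times and Gpr34 1.86 times lower.

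Cells with the Lpl list (Lpl, a lipoprotein lipase, with Fam20c, Mmp12 and Fabp5) also needed a UMI of Lpl itself, and in them P2ry12 and Gpr34 differed by unequal amounts. P2ry12 was at 1392 against 3976 CPM, lower by 2.86 times (interval 2.71 to 3.01), while Gpr34 was at 1072 against 1623 CPM, lower by 1.51 times (interval 1.43 to 1.61). Over unshared barcodes the ratios were 2.79 and 1.40, which takes Gpr34 below the limit. By suffix P2ry12 was lower by 2.21 to 2.96 times and Gpr34 by 1.26 to 1.60 times, ranges that do not overlap in 5 suffixes. At the same mix of Apoe bins P2ry12 was 2.08 times lower and Gpr34 1.11 times. P2ry13 was lower by 2.24 times, and P2rx4 higher by 1.65 times (interval 1.45 to 1.88). Of these cells 29.7% were shared.

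In mitosis P2ry12 was lower by 1.90 times (interval 1.80 to 2.00), Gpr34 by 2.22 times (interval 2.04 to 2.42) and Entpd1 by 1.58 times (interval 1.22 to 2.08). P2rx7 rested on 11 UMIs there and was lower by 2.77 times (interval 1.55 to 5.55). P2rx4 too was lower, by 1.49 times (interval 1.17 to 1.93), unlike its direction in the interferon, Lpl and chemokine states, and Apoe was 1.48 times lower. P2ry6 was at 279 against 277 CPM. Cells in S phase showed smaller differences of the same sign, 1.35 times for P2ry12 and 1.43 times for Gpr34, in 6 of 6 suffixes each. They were at 2960 CPM for P2ry12 and 1145 CPM for Gpr34, with a median of 4098 UMIs against 3239. All gated microglia of 4000 UMIs or more were at 3400 and 1308 CPM.

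Cells high in the monocyte attractants Ccl2 and Ccl12 held P2ry12 at 2552 against 4160.2 CPM and Gpr34 at 1069 against 1702 CPM, lower by 1.63 times (interval 1.61 to 1.65) and 1.59 times (interval 1.56 to 1.62), and P2rx4 was higher by 1.37 times (interval 1.30 to 1.44). At the same mix of Apoe bins P2ry12 was 1.42 times and Gpr34 1.39 times lower. Cells with MHC class II genes, which present antigen to T cells, held P2ry12 at 2743 against 3973 CPM and Gpr34 at 1037 against 1631 CPM. Of these 475 cells 301 came from suffix 1, and within the 4 suffixes with 20 or more unshared cells P2ry12 was lower by 1.52 to 1.81 times. Apoe was 2.66 times higher there, and at the same mix of Apoe bins P2ry12 was 1.15 times and Gpr34 1.26 times lower. This mix was matched over all suffixes together and not within a suffix. Suffix 1 had the highest unshared P2ry12 level of the 6 suffixes, 4568 CPM. How much of the smaller ratio goes with Apoe and how much with suffix was not tested.

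**Figure D5:**
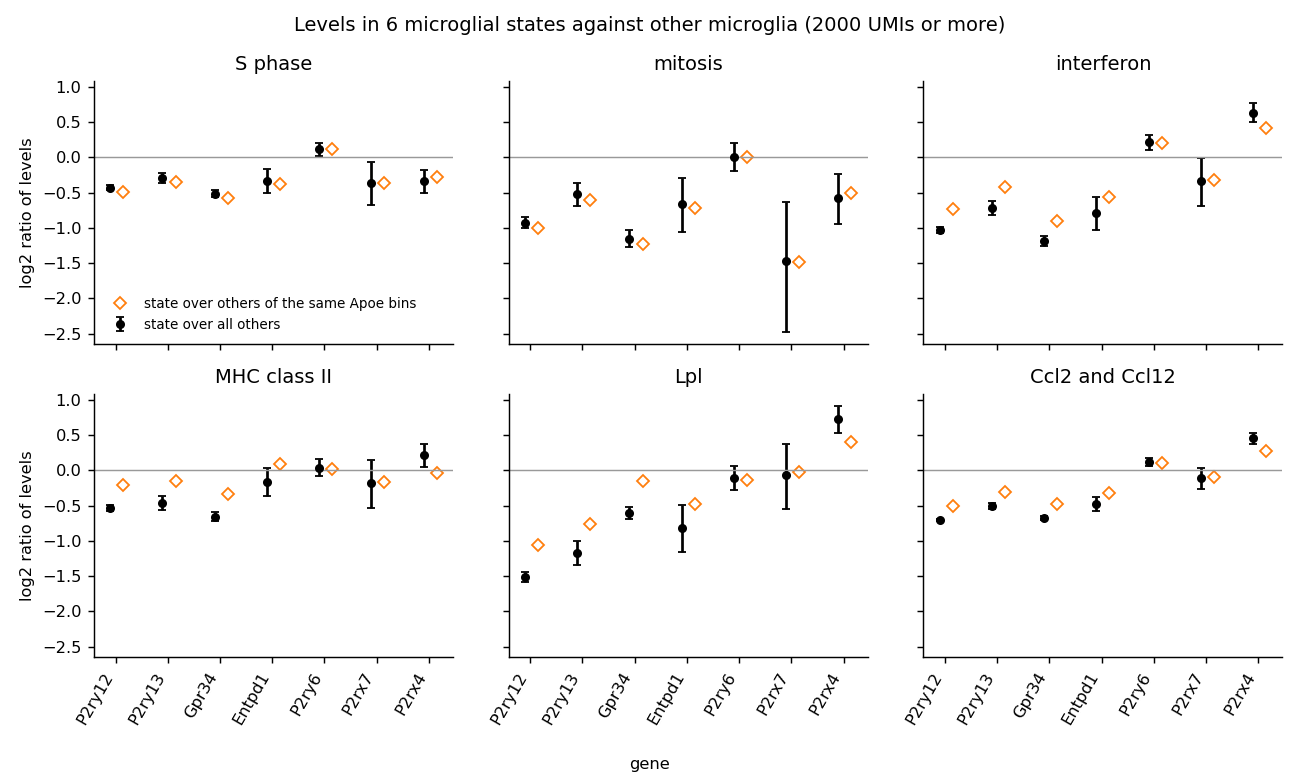
Log2 ratio of the level of each gene (x axis) in 6 microglial states over other microglia of 2000 UMIs or more, with 95% intervals (black), and over other microglia weighted to the Apoe bins of the state (orange diamonds). Both kinds of mark of P2ry12 and Gpr34 lie below 0 in each state. The black marks of P2rx4 lie above 0 in the interferon, MHC class II, Lpl and Ccl2 states (the diamond of the MHC class II state lies just below, at 0.974 times) and below in S phase and mitosis, and in the Lpl state Gpr34 (1.51 times lower) parts from P2ry12 (2.86 times lower).

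Other genes of the nucleotide and lysophospholipid pathway were read from lists. Of 48 listed genes 41 are none of the 7, and 21 of these 41 were under 1 CPM, among them P2ry1, P2ry4, P2rx2, P2rx3 and P2rx5, the adenosine receptors Adora2a and Adora2b, and Nt5e, the CD73 enzyme that turns AMP to adenosine. The share of all genes under 1 CPM was not counted. Of the 41 genes, 7 reached 20 CPM, a share similar to that of 5396 among all 31053 genes. By this limit the pathway does not stand out. Across the Apoe bins 2 of these 7 were lower and 1 higher by at least 1.5 times, against 8.64% and 6.49% of 5396 genes. With so few genes, this count is a description only. Adora3, an adenosine receptor, was at 105 CPM and lower by 1.52 times in the highest bin (1.29 unshared, which is below the limit). Lpar6, a receptor for lysophosphatidic acid, was at 99.6 CPM and lower by 1.92 times (1.61 unshared). Gpr65, a receptor for protons and lysolipids, was at 22.0 CPM and higher by 5.18 times (4.33 unshared), from 10.3 to 53.6 CPM. The nucleoside transporters Slc29a1 and Slc29a3 were at 115 and 233 CPM, with lowest-to-highest ratios of 1.35 and 1.29. Of the enzymes that make and clear lysophosphatidylserine, the ligand of Gpr34, Abhd16a was at 68.2 and Abhd12 at 699 CPM. Abhd12, a lipase that clears it, was at 681 CPM in the lowest and 680.4 CPM in the highest Apoe bin, where Gpr34 was lower. Over unshared barcodes Abhd12 was 1.16 times higher in the highest bin, and by suffix it was higher in 6 of 6.

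As a description over 30 strata, 1 for each suffix and Apoe bin, P2ry12 and Gpr34 went together most closely among the 7 genes (Pearson's r of log2(CPM + 1) 0.988 over all and 0.980 over unshared barcodes). P2ry12 and its neighbor P2ry13 gave 0.968, and P2rx4 was opposite to P2ry12 (-0.972). P2rx4 and its neighbor P2rx7 gave -0.325, and P2ry6 was near 0 with P2ry12 (-0.0832). Strata share suffixes, depth and, for shared barcodes, perhaps cells, so no p is given. They are also built on the Apoe bins. Genes shown above to differ with Apoe are therefore bound to go together or opposite here, and genes level across the bins are not. Among 1319 genes of at least 100 CPM the closest to P2ry12 after Gpr34 were Sox4 (0.981) and Taf7 (0.976), to Gpr34 they were P2ry12, P2ry13 and Sox4, and to P2ry13 Ubash3b (0.978), Commd8 (0.977) and Slc16a6 (0.975). Entpd1 was closest to the microglial genes Tmem119 (0.945) and Selplg (0.941), followed by Ptma (0.930). P2rx4 was closest to Fth1, a ferritin subunit (0.959), Ctsz, a cathepsin (0.958), and Tlr2, a receptor for bacterial lipoproteins (0.951). The closest to P2ry6 were Qsox1 (0.769), Lrrc25 (0.728) and Pou2f2 (0.719), and to P2rx7 Zfp644 (0.582), Atf4 (0.576) and Tcirg1 (0.565), all lower than the values of the other 5 genes.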

How the data were processed

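The authors made 10x Chromium 3' libraries (v2 chemistry) of the 6 mice, aligned reads to mm10 and counted UMIs with Cell Ranger 3.1 (3.1.0 by the header of the matrix), combined the 6 libraries by its aggregate pipeline, and used Seurat 3.1.5 downstream. The deposited matrix holds raw UMI counts, whole numbers per gene and barcode, before the filters of the paper and without batch correction. The study sequenced in 3 batches that the labels do not tie to suffixes. 

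The limits of the study on barcodes were applied here, and those over 2500 genes, which the study counted as doublets, were removed. No doublet caller was run, and cells of another gate with 0.5% or more microglial UMIs were kept apart. Cells were gated, binned and summed in Python 3.11.15 (numpy 2.4.6, scipy 1.17.1, pandas 2.3.3), and figures drawn with matplotlib 3.10.9. Levels are UMIs per 1000000 UMIs of a group (CPM). Intervals are exact Poisson for levels, conditional binomial for ratios and Clopper-Pearson for shares, at 95%, and cover counting error only. A count of 0 was bounded by 3 counts. Suffix values need 20 cells. Depth was 9745192 to 24393841 UMIs per suffix. A gene was called at 1.5 times between bins or states and at 2 times between types, and no p was computed, since the matrix was treated as 1 pooled sample. Genes beyond the 7 were named by their rank in likeness or a level of 20 CPM in a pathway list. The 7 genes, lists and limits were chosen with earlier results of these data known. Results on 1 gene of the microglial list are not reported here. The calculations were tested on simulated data. Coordinates are from GENCODE vM21 (GRCm38).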

Additional observations from a re-analysis of the deposited data

How the results depend on the processing

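The 4 counts were recomputed under 20 other settings where they apply, 3 of them chosen after the data were seen (shared barcodes left out, 1 copy kept of each, and no UMI on 3 other lists). The count of genes lower across Apoe bins was 4 of 7 in every one, from 4 to 4 without each suffix in turn, and the log2 ratio of the lowest over the highest bin lay between 1.41 and 1.73 for P2ry12 and between -1.02 and -0.80 for P2rx4. The count against monocytes was 5 of 7, or 6 with the mean over cells, from 5 to 5 without each suffix. The count of gene and state pairs was 15, from 14 to 17, and from 15 to 17 without each suffix. The count across UMI bins, 1 of 7, became 0 without the limit of 2500 genes, with at least 1000 UMIs, with unshared barcodes only and with 1 copy of each shared barcode, and ran from 0 to 3 without each suffix (0 without suffix 3, 2 without suffix 4, 3 without suffix 5). The only called value to change sign was Gpr34 across UMI bins, whose log2 ratio of highest over lowest bin was 0.64 over all and -0.28 over unshared barcodes. Whether shared barcodes are copies of 1 cell was not tested. Of 1109 values of single genes and of cell numbers, 103 moved past their counting interval. No paired analysis was possible because the labels tie no barcode suffix to a mouse or a condition, and groups were taken from the labels alone. The library metrics of the paper list cell numbers and median UMIs by library and condition, and these equal the values of the suffixes. Suffixes could be tied to conditions in that way, which was not done here. Differences between suffixes may therefore include differences between conditions, which was not tested. Depth limits P2rx7, Entpd1, P2rx4 and P2ry6, each with a median of 0 UMIs per cell (found in 9.31%, 24.4%, 27.4% and 43.8% of gated microglia). It also limits the small gates, where levels rest on few UMIs.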

Other observations

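Barcodes outside the limits of the study enter no comparison above. In the 891 barcodes with over 2500 genes and under 5% mitochondrial UMIs, P2ry12 was at 2399 CPM (95% Poisson interval 2367 to 2432), Gpr34 at 931, P2ry13 at 404, P2ry6 at 288, P2rx4 at 147, Entpd1 at 92.8 and P2rx7 at 35.6 CPM. In the 760 barcodes with at least 5% mitochondrial UMIs and at most 2500 genes, P2ry12 was at 1491 CPM (interval 1419.7 to 1564), Gpr34 at 751, P2ry13 at 311, P2ry6 at 217, P2rx4 at 161, Entpd1 at 62.0 and P2rx7 at 33.2 CPM. In both sets P2ry12, Gpr34, P2ry13 and Entpd1 were below their levels over all gated microglia.

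Among pathway genes under the limit of 20 CPM, Adora1, an adenosine receptor, went from 2.31 CPM in the lowest to 17.9 CPM in the highest Apoe bin, 7.74 times higher, and 13.8 times over unshared barcodes. P2ry2, a receptor for ATP and UTP, went from 3.16 to 12.8 CPM, 4.03 times higher (interval 2.99 to 5.51, 4.08 unshared). P2rx1, an ATP-gated channel, was 3.10 times lower (2.04 unshared), from 17.3 to 5.59 CPM. These 3 genes were picked after their values were seen.

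By suffix, from 1 to 6 and over unshared barcodes, P2ry12 in gated microglia was at 4568, 4256, 4342, 3406, 3030.1 and 4047 CPM. Gpr34 was at 1778, 1959, 1747, 1408, 1217 and 1569.8 CPM, P2ry13 at 677, 645, 760.1, 572, 477 and 596 CPM and Entpd1 at 141, 126, 152, 109.6, 105 and 109 CPM. P2rx4 was at 126, 131, 129, 145, 142 and 135 CPM.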
